A study of Mus musculus with 12 samples.

Results

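The subject is the difference between 2 differentiation responses: how far each gene moved when mouse embryonic fibroblasts lacking the triacylglycerol-synthesizing enzymes DGAT1 and DGAT2 (double knockout, D1D2KO) were turned into adipocytes, minus how far it moved in wild-type (WT) fibroblasts. It was taken over all 12 samples of the series, 3 in each of the 4 groups (undifferentiated and differentiated cells of either genotype), and over the 19938 genes that a probe set named alone. A gene was called where limma gave this difference a Benjamini-Hochberg adjusted p under 0.05, and 291 genes (1.46%) were. Called genes were then sorted by whether the genotypes differed in the undifferentiated cells (the start level), in the differentiated cells (the end level), in both or in neither.

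The cells came from embryos at day 14 of C57BL6 mice and grew in DMEM with 10% serum. The differentiated groups of both genotypes received dexamethasone at 1 µM, isobutylmethylxanthine at 500 µM, insulin at 5 µg/ml and troglitazone at 15 µM, starting 2 days after confluency and lasting 2 to 3 days. Insulin and troglitazone alone followed for 2 days, and then plain medium until harvest, whose day the labels do not give. Dexamethasone is a glucocorticoid and troglitazone an activator of PPARγ, so drug-responsive genes and genes of the adipocyte fate cannot be told apart in the response. Total RNA was read on single-colour whole-transcript arrays. The series' text calls the samples of a group biological replicates, and the labels do not tie each one to an embryo, a culture or a line, and the p-values rest on the spread among them, which may be partly technical.

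Adipocytes store fatty acids as triacylglycerol in lipid droplets, and the DGAT enzymes carry out the last step, joining a fatty acyl-CoA to diacylglycerol. Adipogenesis is driven by PPARγ and C/EBP transcription factors, which turn on genes of lipid uptake, storage and mitochondria while matrix and cytoskeletal genes of the fibroblast decline. A response that differs between genotypes can come from different starting cells, from different end points or from both, which is why both levels are given for each gene.

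Values are log2 signals; a difference of 1 is a doubling. Column medians lay between 5.61 and 5.69, and the lower quartile of the signals between 4.1 and 4.26, below which a signal is called low here. Samples of a group correlated over all genes at r between 0.993 and 0.997. Lack of overlap between the genotypes is common: it held in 7837 of all 19938 genes at the start and in 6161 at the end. The median standard deviation of a gene within a group was 0.0884 and 0.0804 in undifferentiated WT and D1D2KO cells, and 0.118 and 0.111 in the differentiated ones. D1D2KO differentiated replicate 3 and WT differentiated replicate 2 received the lowest array weights from limma, 0.373 and 0.409. Without the first 405 genes were called, and without the second 217.

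The targeted genes were read in every sample first. Dgat1 read 6.94, 6.93 and 6.98 in undifferentiated WT cells and 5.56, 5.6 and 5.66 in undifferentiated D1D2KO cells. After differentiation it read 9.36, 9.33 and 9.53 against 8.26, 8.03 and 7.75. Both states therefore showed a lower Dgat1 signal in D1D2KO, without overlap, and the difference between the responses was not called: it was -0.05 ± 0.15 (standard error; 3 samples a group; limma with Benjamini-Hochberg adjustment, adjusted p = 0.964). Dgat2 read 10.28, 9.86 and 10.53 in differentiated WT cells and 8.37, 8.62 and 8.66 in differentiated D1D2KO cells, from 5.94, 5.98 and 5.95 and 5.44, 5.5 and 5.51 before. Its response was smaller by 1.20 ± 0.18 on the log2 scale in D1D2KO, an 8.38-fold rise against a 19.2-fold rise (adjusted p = 0.00271). The labels do not say where these probes lie relative to the deleted parts, and the remaining signal cannot be assigned to intact or truncated transcripts.

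Of the 291 called genes, 149 (0.747% of the genes tested) responded more positively in D1D2KO and 142 (0.712%) more negatively. The difference in response ranged from 0.44 to 2.55 in size, with a median of 0.70 and a median standard error of 0.13, and it reached 1 in 39 genes, 26 of them more positive and 13 more negative. Over all genes the median difference was -0.01, and 9492 of 19938 genes had a positive one. The overall response was large in both genotypes, with 6794 genes (34.1%) called in WT and 7311 (36.7%) in D1D2KO. Most called differences were differences of size: 104 of the 149 more positive genes rose in both genotypes and 87 of the 142 more negative genes fell in both. The 2 responses were called in opposite directions in 9 genes, 2 more positive and 7 more negative in D1D2KO.

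The start level differed between genotypes in 1600 of all tested genes (8.02%) and the end level in 2726 (13.7%). Among the called genes, 57 differed at the start only (19.6%), 167 at the end only (57.4%), 37 at both with the same sign (12.7%) and 24 at both with opposite signs (8.25%). The last 6 differed at neither by this threshold. The 24 genes were also all the genes of the 19938 in which both levels were called with opposite signs. Direction and class went together: of the start-only genes 53 were more positive and 4 more negative in D1D2KO, while of the end-only genes 62 were more positive and 105 more negative.

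The sorting is a description and not a second test. The difference in response is exactly the end difference minus the start difference and comes from the same 12 samples, so error in one group enters both. A start-only gene may also hold an end difference too small to be called. In size, the start difference was the larger of the pair in 84 called genes and the end difference in 207. The start difference was the larger in 76 of the 149 more positive genes and in 8 of the 142 more negative genes.

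**Figure D1:**
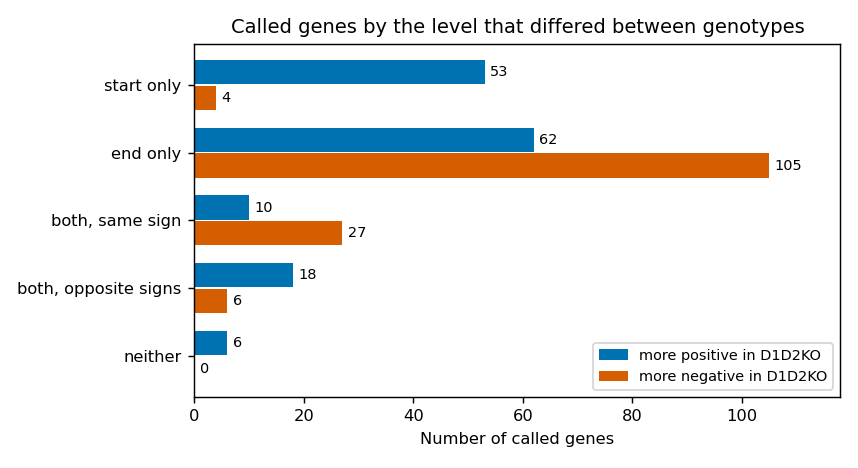
Number of called genes (horizontal axis, counts) in each class of differing level (vertical axis), by whether the response was more positive or more negative in D1D2KO. Start-only genes were 53 to 4 on the more positive side, and end-only genes 62 to 105.

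**Figure D2:**
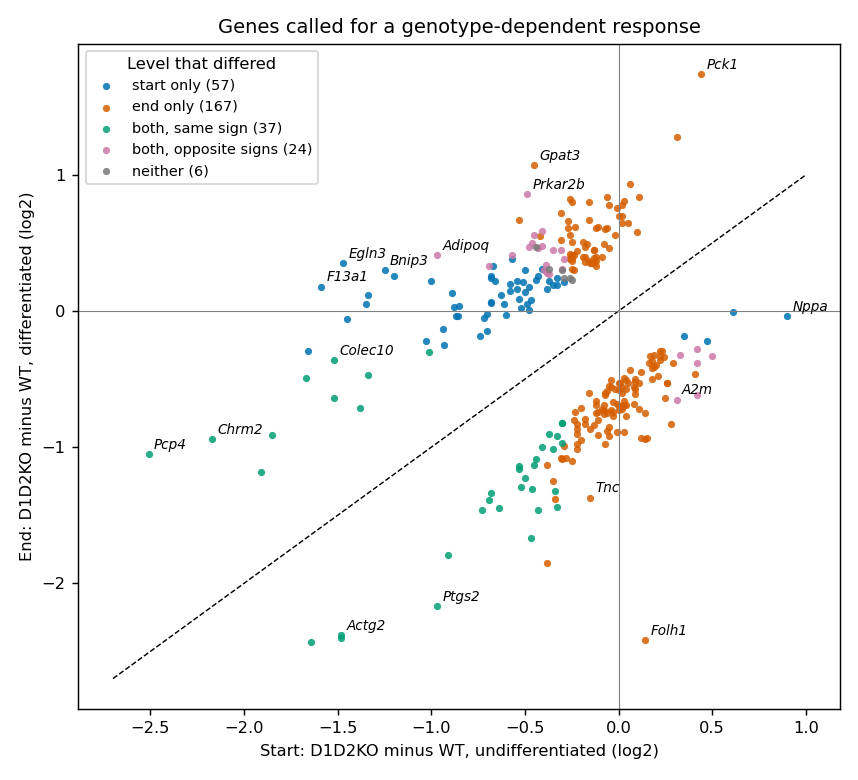
Each point is 1 of the 291 called genes, at its D1D2KO minus WT difference in undifferentiated cells (horizontal, log2) and in differentiated cells (vertical, log2), coloured by class; the dashed line marks equal differences, where the responses would be equal. Points above the line responded more positively in D1D2KO; the empty band around the line follows from the threshold.

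How much 1 sample mattered was read by leaving out each of the 12 in turn, with limma and the adjustment repeated. Of the 291 genes, 134 (46.0%) were called in each of the 12 refits, and the count ranged from 159 to 449. It moved by more than 1.5 times without WT undifferentiated replicate 1 (159 genes) or 2 (176), without D1D2KO undifferentiated replicate 1 (168), 2 (187) or 3 (171), without D1D2KO differentiated replicate 1 (185) or 2 (190), and without WT differentiated replicate 3 (449). By class, 21 of the 24 opposite-sign genes, 22 of the 37 same-sign genes, 24 of the 57 start-only genes, 67 of the 167 end-only genes and 0 of the 6 others were called in each refit. In opposite-sign genes the level differences add up in the difference in response, so their high share is no separate result. Genes below were called in each refit unless the text says otherwise.

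Start-only genes with the more positive response included Egln3 and Bnip3, both known targets of hypoxia-inducible factor. Egln3, a prolyl hydroxylase that marks hypoxia-inducible factor for destruction and is itself induced by it, read 7.87, 7.89 and 7.76 in undifferentiated WT cells and 6.37, 6.64 and 6.1 in undifferentiated D1D2KO cells. After differentiation it read 10.38, 10.33 and 10.74 against 10.78, 10.86 and 10.87. The D1D2KO cells were thus the lower group at the start and, by a smaller margin, the higher group at the end, with no overlap in either state. Egln3 rose 6.25-fold in WT and 22.1-fold in D1D2KO, a difference of 1.82 ± 0.17 on the log2 scale (limma adjusted p = 0.000103). Its start difference was -1.47 (adjusted p = 1.48e-06), and its end difference of 0.35 did not pass (adjusted p = 0.0667).

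Bnip3, a mitochondrial outer-membrane protein that promotes removal of mitochondria, followed the same course. Its undifferentiated signals were 9.26, 9.44 and 9.17 in WT and 7.98, 8.37 and 7.78 in D1D2KO, and its differentiated signals 11.58, 11.59 and 11.71 and 11.96, 11.96 and 11.84. It rose 5.05-fold in WT and 14.7-fold in D1D2KO, a difference of 1.54 ± 0.17 (limma adjusted p = 0.00038), and its end difference of 0.30 did not pass (adjusted p = 0.108).

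Of the 24 measured genes of the hypoxia-inducible list 6 were called, all more positive in D1D2KO, against 0.747% of all genes. The list also held Hif1a, Epas1, Arnt, Vhl and Egln2, which are parts of the factor or its regulation. None of these was called, and in WT they changed by -0.74, 1.05, -0.15, 0.0 and -0.03. At the start 13 of the 24 were lower in D1D2KO and 0 higher (8.02% of all genes differed); at the end 3 were lower and 1 higher (13.7%). The list's median difference in response was 0.27, beside -0.01 over all genes, and 17 of 24 members were positive. Pfkfb3, which makes the activator of phosphofructokinase, was 0.41 lower in D1D2KO at the start and 0.59 higher at the end (difference in response 1.00 ± 0.13, limma adjusted p = 0.000781). Vegfa, Higd1a and Ero1a were called over all samples but lost the call in 6, 9 and 10 of the 12 refits, so that 3 of the 6 were called in each. The lost calls reached adjusted p values of 0.0766, 0.0977 and 0.131. The mean log2 level of the whole list was 7.99 to 8.08 in undifferentiated WT samples and 7.53 to 7.7 in undifferentiated D1D2KO samples. In differentiated samples the ranges, 8.87 to 9.06 and 8.78 to 8.97, overlapped.

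The glycolysis list also held glucose and lactate transporters and Pdk1, the kinase that holds pyruvate back from mitochondria. At the start 12 of its 18 measured members were lower in D1D2KO and 0 higher (8.02% of all genes differed). At the end 2 were lower and 1 higher (13.7%). In response 5 were called, all more positive, against 0.747% of all genes, and the median difference was 0.53 with 15 of 18 positive. Pgk1, phosphoglycerate kinase, was the member called in each refit: it read 11.76, 11.87 and 11.8 against 11.12, 11.4 and 11.09 at the start and 12.62, 12.77 and 12.8 against 12.82, 12.79 and 12.75 at the end. The D1D2KO samples were below WT at the start without overlap and lay among the WT samples at the end (difference in response 0.66 ± 0.13, limma adjusted p = 0.0136). Pfkl, Pfkp, Tpi1 and Pgam1 were also called, with differences from 0.72 to 1.02, but lost the call in 9, 6, 8 and 8 refits; the count of called members ranged from 1, without WT undifferentiated replicate 1, to 9, without D1D2KO differentiated replicate 3. Ldha, lactate dehydrogenase, had a difference of 0.55 ± 0.14 and was not called (adjusted p = 0.066).

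The promoter windows of Egln3 and Bnip3 are shown because both carry the short core that hypoxia-inducible factor recognizes, ACGTG or GCGTG on either strand, in capitals. They are RefSeq windows of GRCm38.p6 from 250 bases before to 50 bases after the annotated start, 5′ to 3′ on the gene's strand, at chr12:54203825-54204124 (minus strand) for Egln3 and chr7:138909457-138909756 (minus strand) for Bnip3.
Egln3: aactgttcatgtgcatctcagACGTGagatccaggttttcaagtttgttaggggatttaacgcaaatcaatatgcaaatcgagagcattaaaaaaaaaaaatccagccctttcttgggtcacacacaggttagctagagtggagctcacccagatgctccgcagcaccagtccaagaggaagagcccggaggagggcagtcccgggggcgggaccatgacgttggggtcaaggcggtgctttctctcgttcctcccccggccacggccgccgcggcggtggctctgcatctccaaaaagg
Bnip3: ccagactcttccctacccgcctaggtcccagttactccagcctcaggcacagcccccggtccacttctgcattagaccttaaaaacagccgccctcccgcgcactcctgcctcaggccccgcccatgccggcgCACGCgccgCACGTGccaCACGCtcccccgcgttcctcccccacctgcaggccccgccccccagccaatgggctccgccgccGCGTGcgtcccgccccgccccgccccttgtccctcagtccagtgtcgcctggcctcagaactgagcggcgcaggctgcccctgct
The Egln3 window held 1 match and the Bnip3 window 5, of which overlapping ones share bases. The core is common: 55.3% of the 15614 tested genes with a window held it. It was found in 19 of 20 genes of the hypoxia-inducible list with a window and in 17 of 18 genes of the glycolysis list. Among genes more positive in D1D2KO it was in 33 of 47 start-only (70.2%) and 32 of 49 end-only ones (65.3%). Among end-only genes that were more negative it was in 41 of 76 (53.9%). A match describes these letters and does not show binding.

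Other start-only genes came from several lists or from none. F13a1, the catalytic subunit of a coagulation transglutaminase made by macrophages among other cells, read 10, 10.21 and 9.98 in undifferentiated WT cells and 8.41, 8.87 and 8.14 in undifferentiated D1D2KO cells. After differentiation it read 10.11, 9.71 and 10.27 against 10.29, 10.3 and 10.04. The WT level was flat (change -0.03, adjusted p = 0.903) and the D1D2KO level rose 3.34-fold to meet it, a difference of 1.77 ± 0.23 (limma adjusted p = 0.000781). Of 13 measured macrophage markers 0 were called by limma and 1 had an unadjusted p under 0.05. Over all genes 1.46% were called, so 0 among so few is near that share. The summed linear signal of the 13 ran from 11200 to 12000 in undifferentiated WT and from 11200 to 11900 in undifferentiated D1D2KO samples. It ran from 5090 to 6030 and from 4840 to 5390 in differentiated samples, and the summed ranges overlapped between genotypes in both states. Macrophage markers were thus well detected in these cultures. Of the 13, Itgam was lower in D1D2KO at the start (-0.63, limma adjusted p = 0.000948), where 8.02% of all genes differed. Itgam, Fcgr1 and Clec4n were lower at the end, where 13.7% of all genes differed. What part such cells had in the F13a1 signal was not tested.

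Itih5, a hyaluronan-binding protein, showed the same low start, 5.84, 6.12 and 5.94 in D1D2KO against 7.38, 7.31 and 7.23 in WT. At the end its WT signals spread from 7.02 to 7.97 around the D1D2KO range of 7.39 to 7.96. Brinp3 read 6.75, 6.82 and 6.73 in WT and 5.47, 5.71 and 5.07 in D1D2KO at the start, and fell in both genotypes to between 4.28 and 4.77. Those end signals lie just above the lower quartile of the arrays, so a remaining difference there would be poorly measured. Ednrb, the endothelin B receptor, and Tnnt2, cardiac troponin T, likewise fell less in D1D2KO from a lower start (differences of 0.72 and 0.75). Ednrb was the 1 called member of 10 neural and glial markers, where 1.46% of all genes were called.

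Fabp4, the fatty acid carrier of adipocytes, belonged to the start-only class although it is a late marker. It read 7.2, 7.31 and 6.91 in undifferentiated WT cells against 6.1, 5.73 and 6 in D1D2KO, and 12.3, 12.31 and 12.55 against 12.7, 12.71 and 12.52 after differentiation. Its rise was 37.9-fold in WT and 104-fold in D1D2KO, mostly through the lower starting signal (difference 1.45 ± 0.16, limma adjusted p = 0.000452). Mgll, monoacylglycerol lipase, also started lower, with no called difference at the end (0.88 ± 0.14). Car3, a carbonic anhydrase abundant in adipocytes, was called except without WT undifferentiated replicate 1 (adjusted p = 0.0604 there), and Hp, haptoglobin, except without D1D2KO undifferentiated replicate 3 (0.0503).

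Nppa, the atrial natriuretic peptide, was the largest of the 4 start-only genes that ran the other way. It read 7.49, 7.52 and 7.14 in undifferentiated D1D2KO cells against 6.36, 6.59 and 6.48 in WT. After differentiation the ranges were 6.51 to 6.58 and 6.39 to 6.77 and overlapped, so the response was lower by 0.94 ± 0.16 in D1D2KO (limma adjusted p = 0.00595).

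**Figure D3:**
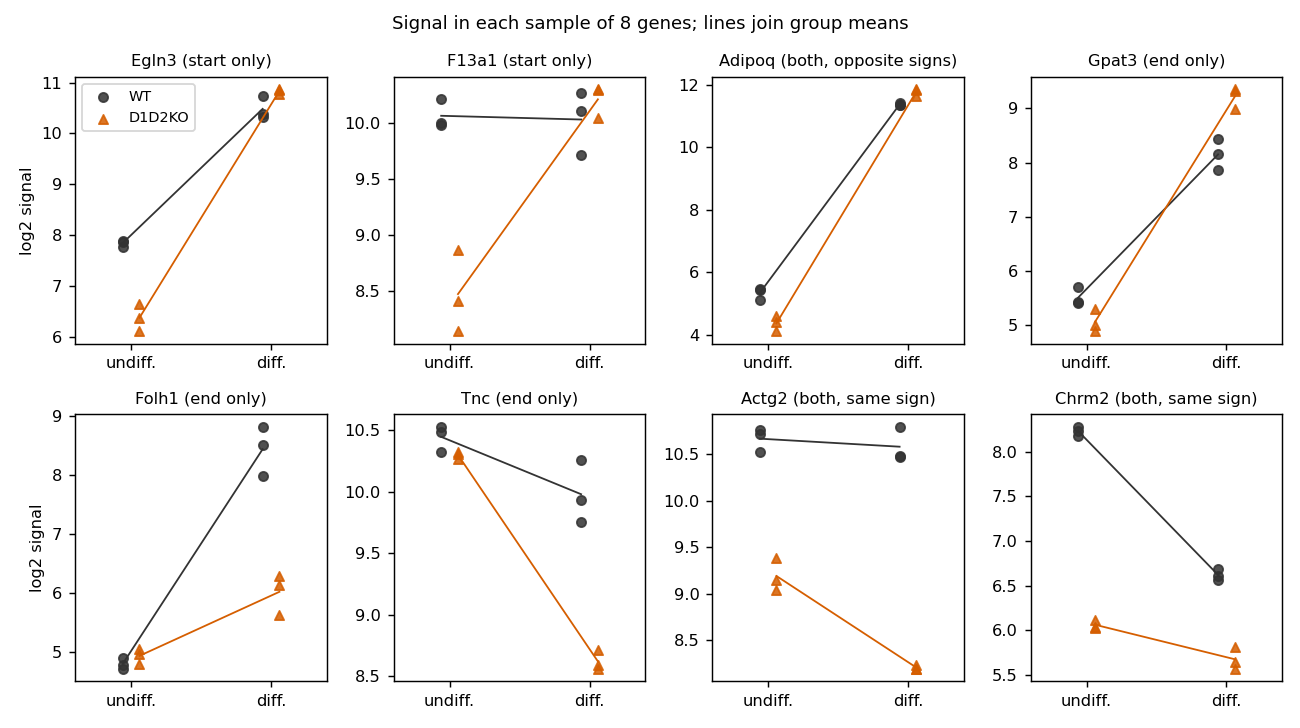
Log2 signal (vertical axis) of 8 genes in the 12 samples, undifferentiated and differentiated (horizontal axis), WT as circles and D1D2KO as triangles, with lines joining group means; axes differ between panels. Egln3 and F13a1 differed between genotypes at the start only, Gpat3, Folh1 and Tnc at the end only, and Adipoq, Actg2 and Chrm2 at both.

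In 18 genes the D1D2KO cells started lower and ended higher than WT. Adipoq, the adipokine adiponectin, read 5.43, 5.46 and 5.12 in undifferentiated WT cells and 4.11, 4.59 and 4.41 in D1D2KO. The D1D2KO signals there lie near the lower quartile of the arrays, so the start difference is less well measured. After differentiation Adipoq read 11.34, 11.4 and 11.35 against 11.85, 11.84 and 11.64. The order of the genotypes turned over between the states, without overlap in either (start -0.97, end 0.41; difference in response 1.38 ± 0.17, limma adjusted p = 0.000501). Prkar2b, a regulatory subunit of protein kinase A, crossed further at the end: 9.89, 9.81 and 10.35 in WT against 10.84, 10.98 and 10.8 in D1D2KO, after a start 0.49 lower (1.35 ± 0.16, adjusted p = 0.000473).

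The crossing genes included several with known roles in the adipocyte. Aoc3, an amine oxidase of the adipocyte surface, Cav2, a caveolin, Gys1, a glycogen synthase, and Tshr, the thyrotropin receptor, had differences in response from 0.96 to 1.01. Tshr was below the lower quartile of signals in 1 group at the start, so its start difference is less well measured. Cycs, cytochrome c, read 9.06, 9.21 and 9.14 against 8.69, 8.85 and 8.59 at the start and 10.42, 10.4 and 10.91 against 10.99, 11.08 and 11.02 at the end (0.88 ± 0.17, limma adjusted p = 0.0116). WT differentiated replicate 3 came close to the lowest D1D2KO sample, and the other 2 lay well below.

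The 6 genes that crossed downward were Tll1, A2m, Pkhd1l1, S100a9, Edil3 and Cpxm1, with differences in response from -1.04 to -0.66. A2m, a broad protease inhibitor, read 8.17, 8.24 and 8.06 in undifferentiated WT and 8.2, 8.13 and 8.19 in differentiated WT cells, a flat course. In D1D2KO cells it went from 8.38, 8.46 and 8.57 to 7.66, 7.49 and 7.43, from above all WT samples to below all of them (-0.96 ± 0.12, limma adjusted p = 0.000762). Tll1, a tolloid-like protease, fell in both genotypes, from a higher start to a lower end in D1D2KO.

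The 62 end-only genes with the more positive response were led by enzymes of glycerolipid supply. Gpat3, a glycerol-3-phosphate acyltransferase of the first step of triacylglycerol synthesis, read 5.41, 5.7 and 5.43 in undifferentiated WT and 5, 4.89 and 5.3 in undifferentiated D1D2KO cells. It then read 8.16, 7.86 and 8.43 against 9.32, 9.35 and 8.98. The differentiated groups stood apart by 1.07 (limma adjusted p = 0.00015), while the start difference of -0.45 did not pass (adjusted p = 0.0631). Its groups did not overlap at the start, as was so in 7837 of all 19938 genes. The rise was 6.22-fold in WT and 17.8-fold in D1D2KO (difference 1.52 ± 0.20, limma adjusted p = 0.00103).

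Pck1, phosphoenolpyruvate carboxykinase, which supplies glycerol phosphate in adipocytes, was the called gene with the highest end difference. It read 7.93, 7.54 and 7.86 in differentiated WT and 9.71, 9.65 and 9.19 in differentiated D1D2KO cells (end 1.74, difference in response 1.30 ± 0.22, limma adjusted p = 0.00595). At the start its groups did not overlap either, with D1D2KO higher by 0.44, which did not pass (adjusted p = 0.0835). Gnai1, an inhibitory G-protein subunit, Ppa1, a pyrophosphatase, and Apmap, an adipocyte membrane protein, followed with differences from 1.04 to 1.08.

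Of the 19 measured triacylglycerol synthesis genes 2 were called as more positive, Gpat3 and Pck1 (0.747% of all genes were). As more negative 1 was called, Dgat2 (0.712%), and the list's median was 0.18. Of the 24 adipocyte markers 6 were called, all more positive (0.747% of all genes were): Adipoq, Fabp4, Tshr, Acvr1c, Car3 and Retn. Acvr1c, an activin-type receptor, was 0.66 higher at the end (difference 0.94 ± 0.15, adjusted p = 0.0041). Its undifferentiated signal was below the lower quartile in D1D2KO and close to it in WT, so its start level is less well measured. Retn, resistin, was called at the edge (0.62 ± 0.15, adjusted p = 0.0484), lost the call in 10 of 12 refits and had adjusted p = 0.0571 with the replicate number as a block in D1D2KO.

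Over the whole adipocyte list the median difference was 0.49, with 20 of 24 positive and 16 at an unadjusted p under 0.05. At the start 5 of 24 were lower and 1 higher in D1D2KO (8.02% of all genes differed), and at the end 12 were higher and 1 lower (13.7%). The mean log2 level of the list ran from 9.7 to 9.92 in differentiated WT samples and from 10 to 10.18 in differentiated D1D2KO samples, without overlap, and was 6.05 to 6.08 and 5.88 to 5.94 before. In bulk RNA a larger share of cells that became adipocytes and more RNA per adipocyte cannot be told apart. At the end the mitochondrial genes described below were also higher in D1D2KO as a list, and the matrix and muscle genes lower. What part the higher level of the adipocyte markers had in those results was not tested. Pparg itself, the master regulator, had a difference of 0.13 ± 0.14 and was not called (adjusted p = 0.848), and Plin1 one of 0.53 ± 0.18 (adjusted p = 0.214).

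Genes of mitochondrial energy metabolism leaned one way as a group. All 27 measured genes of the respiratory chain and tricarboxylic acid cycle list rose in both genotypes, and all 27 differences in response were positive, from 0.17 to 0.88 with a median of 0.44. Of them 5 were called (Idh3a, Cycs, Uqcrc1, Uqcrc2 and Dlst) against 0.747% of all genes, and 24 had an unadjusted p under 0.05, as did 2239 of all 19938 genes in either direction. At the end 14 of 27 were higher in D1D2KO and 0 lower, where 13.7% of all genes differed; at the start 1 was lower and 0 higher. Idh3a, a subunit of isocitrate dehydrogenase, read 10.75, 10.51 and 11.01 in differentiated WT and 11.4, 11.46 and 11.27 in differentiated D1D2KO cells (difference 0.85 ± 0.16, limma adjusted p = 0.011). Idh3a and Cycs were called in each refit, while Uqcrc1, Uqcrc2 and Dlst lost the call in 8, 10 and 10. The number of called members ran from 2 to 9, the highest without D1D2KO differentiated replicate 3, and the list's median from 0.39 to 0.51.

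At the end 11 of 20 measured genes of fatty acid uptake and oxidation were higher and 0 lower, where 13.7% of all genes differed. In response the list's median difference was 0.39 and 5 were called, all more positive (0.747% of all genes were). They were the carrier Fabp4, described above as a start-only gene, and 4 end-only genes of mitochondrial oxidation, Acadm, Etfdh, Hadhb and Acadl. Acadm, the medium-chain acyl-CoA dehydrogenase, read 11.28, 11.15 and 11.31 against 11.68, 11.76 and 11.62 after differentiation (difference 0.66 ± 0.12, limma adjusted p = 0.00813). Etfdh, which passes electrons from this pathway to the respiratory chain, differed by 0.68 ± 0.13. Hadhb and Acadl lost the call in 10 and 9 refits, and Acadl had adjusted p = 0.0606 with the replicate block in D1D2KO. Of 20 lipid droplet and lipolysis genes 2 were called, both more positive (0.747% of all genes were). These were Mgll and Pde3b, the insulin-regulated phosphodiesterase (0.83 ± 0.15, limma adjusted p = 0.0103). The count of called members was 4 after quantile normalization.

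Fatty acid synthesis genes did not share this direction. Of 20 measured members 2 were called, both more negative (0.712% of all genes were), and the median was -0.21. At the end 8 were lower and 0 higher, where 13.7% of all genes differed. Elovl6, the elongase of palmitate, read 8.25, 8.01 and 8.16 in differentiated WT and 6.85, 6.75 and 6.87 in differentiated D1D2KO cells, from 8.21, 8.32 and 8.22 and 7.94, 7.97 and 7.82. Its WT level stayed within the spread (change -0.11, adjusted p = 0.347) and its D1D2KO level fell 2.13-fold (difference -0.98 ± 0.12, limma adjusted p = 0.000501). Fads2, a desaturase of polyunsaturated fatty acids, read 9.36, 9.48 and 9.49 against 8.58, 8.58 and 8.53 at the end, from starts without a called difference (-0.82 ± 0.11, adjusted p = 0.000845). Scd1, the main desaturase of adipocytes, and Fasn, fatty acid synthase, had differences of 0.12 ± 0.13 and -0.15 ± 0.16 and were not called. Scd1 was lower in D1D2KO at both levels, by -0.66 at the start and -0.54 at the end (limma adjusted p = 0.000341 and 0.00113). Acly had the largest difference of the list, -1.12 ± 0.29, and was not called either (limma adjusted p = 0.0727). Its end difference was -1.26 (limma adjusted p = 0.000912). The list's median ran from -0.31 to -0.03 over the refits.

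**Figure D4:**
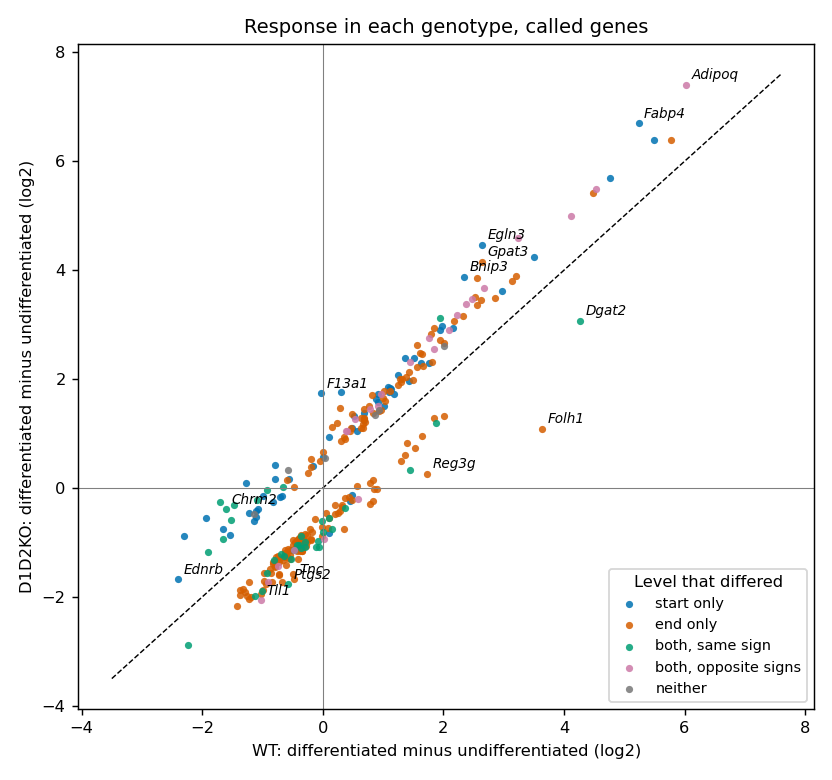
Each point is 1 called gene, at its response in WT (horizontal, differentiated minus undifferentiated, log2) and in D1D2KO (vertical, log2), coloured by class of differing level; the dashed line marks equal responses. Most points lie in the quadrants where both genotypes moved the same way, with Folh1 and Dgat2 far below the line and Egln3, Bnip3 and Gpat3 above it.

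The largest difference of all was a blunted rise. Folh1, a membrane carboxypeptidase that releases glutamate from folates and peptides, read 4.77, 4.9 and 4.71 in undifferentiated WT and 4.96, 4.79 and 5.04 in undifferentiated D1D2KO cells. After differentiation it read 8.5, 7.99 and 8.82 in WT and 6.14, 6.28 and 5.63 in D1D2KO. The groups overlapped at the start and stood far apart at the end: the rise was 12.5-fold in WT and 2.13-fold in D1D2KO (difference -2.55 ± 0.25, limma adjusted p = 0.000103).

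Reg3g, a secreted lectin of the acute-phase type, rose 3.32-fold in WT, to 7.08, 7.69 and 7.12. In D1D2KO it ended at 5.15, 5.61 and 5.58 and its change of 0.26 was not called (difference -1.47 ± 0.22, limma adjusted p = 0.00271). Pgf, placental growth factor, rose from 5.28, 5.44 and 5.34 to 6.7, 6.72 and 6.95 in WT, and in D1D2KO only from 5.14, 4.88 and 5.03 to 5.32, 5.35 and 5.38, lower than WT in both states (-1.10 ± 0.13, adjusted p = 0.000473). In these genes the D1D2KO response was smaller, while in the matrix and muscle genes that follow the D1D2KO cells fell further.

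Matrix genes started level and ended lower in D1D2KO. Of 28 measured members 0 differed at the start in limma's test (4 at an unadjusted p under 0.05), where 8.02% of all genes did. At the end 18 were lower and 0 higher, where 13.7% of all genes differed. In response 9 were called, all more negative, against 0.712% of all genes. The median difference was -0.38, with 3 of 28 positive and 21 more negative at an unadjusted p under 0.05. The mean log2 level of the list was 10.88 to 10.93 and 10.86 to 10.88 at the start and 10.46 to 10.55 against 9.99 to 10.08 at the end.

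Tnc, the matrix glycoprotein tenascin C, read 10.49, 10.53 and 10.32 against 10.31, 10.32 and 10.27 at the start. At the end it read 9.93, 10.26 and 9.75 in WT and 8.56, 8.59 and 8.71 in D1D2KO, a clear gap (difference -1.22 ± 0.15, limma adjusted p = 0.000762). Ccn2, connective tissue growth factor, read 10.55, 10.89 and 10.34 against 8.99, 9.26 and 9.38 at the end (-1.04 ± 0.18, adjusted p = 0.00664), and its relative Ccn1 differed by -0.79 ± 0.15. In all 3 genes WT differentiated replicate 2 was the highest sample of its group.

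Thy1, a surface marker of fibroblasts, Col12a1, a fibril-associated collagen, and Fbln2, a fibulin, were called with differences from -0.72 to -0.61. Thbs1, thrombospondin, was called except without D1D2KO undifferentiated replicate 1 (adjusted p = 0.0537 there). Timp1, a metalloprotease inhibitor, lost the call in 9 refits and under the replicate block in D1D2KO (adjusted p = 0.0597). Col1a1, the most familiar fibrillar collagen, had a difference of -0.36 ± 0.10 and was not called (adjusted p = 0.114).

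Efemp1, an elastic-fibre protein, went in opposite directions in the genotypes. It rose from 8.44, 8.44 and 8.49 to 8.7, 9.1 and 8.63 in WT and fell from 8.82, 8.68 and 8.73 to 7.84, 7.97 and 8.14 in D1D2KO (-1.11 ± 0.16, limma adjusted p = 0.00165). Htr1b, a serotonin receptor, and Sfrp1, a secreted Wnt antagonist, fell further in D1D2KO from starts that did not differ by limma. Their differences in response were -1.08 ± 0.17 and -0.83 ± 0.15. Sfrp1 was the 1 called member of 16 Wnt and preadipocyte genes, where 1.46% of all genes were called.

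Interferon-stimulated genes were alike at the start and lower at the end. Of 17 measured members limma called 0 at the start (0 at an unadjusted p under 0.05 as well), 14 were lower and 0 higher at the end (13.7% of all genes differed), and 17 of 17 differences in response were negative, with a median of -0.62. Of them 5 were called (Gbp3, Ifih1, Mx2, Ifit2 and Bst2) against 0.712% of all genes, and 13 had an unadjusted p under 0.05. The list's mean level was 6.76, 6.91 and 6.46 in differentiated WT samples, with replicate 3 lowest, and 5.97, 6.04 and 6.05 in differentiated D1D2KO samples. At the start it was 6.47, 6.38 and 6.52 against 6.36, 6.36 and 6.62. Without WT differentiated replicate 3 the number of called members was 11, and the fewest, 2, came without WT undifferentiated replicate 1; the median stayed between -0.80 and -0.61.

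Gbp3, an interferon-induced GTPase, read 6.76, 6.53 and 6.74 against 6.77, 6.6 and 7.03 at the start. At the end it read 7.58, 7.57 and 7.36 in WT and 6.49, 6.65 and 6.59 in D1D2KO. The rise of 0.83 in WT was called and the D1D2KO change of -0.23 was not (difference -1.05 ± 0.15, limma adjusted p = 0.00235). Ifih1, a sensor of double-stranded RNA, showed the same pattern at a smaller size (-0.71 ± 0.14, adjusted p = 0.016). Mx2, which lay below the lower quartile of signals in 2 groups, Ifit2 and Bst2 lost the call in 10, 8 and 10 refits; Ifit2 and Bst2 also missed it with the replicate block in D1D2KO (adjusted p = 0.0513 and 0.0592).

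Smooth muscle and actin genes differed at both levels. Of 15 measured members 12 were lower in D1D2KO at the start, where 8.02% of all genes differed, and all 15 were lower at the end, where 13.7% did. Of them 9 were called, all more negative against 0.712% of all genes, with a median difference of -0.57. The mean log2 level of the list was 9.47 to 9.61 in WT samples before and 9.03 to 9.25 after differentiation, and 8.62 to 8.8 and then 7.76 to 7.81 in D1D2KO. The 4 ranges did not overlap, and from the highest down they were WT before, WT after, D1D2KO before and D1D2KO after differentiation.

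Actg2, the smooth muscle gamma actin, read 10.72, 10.76 and 10.53 in undifferentiated and 10.47, 10.8 and 10.48 in differentiated WT cells, with no called change. In D1D2KO it went from 9.15, 9.38 and 9.04 to 8.19, 8.19 and 8.23, a 1.98-fold fall from a level already 2.79-fold lower (difference -0.90 ± 0.15, limma adjusted p = 0.00584). Myl9, a myosin light chain, fell 2.01-fold in WT, to 10.02, 10.19 and 9.99, and 3.7-fold in D1D2KO, to 8.36, 8.32 and 8.15 (-0.88 ± 0.13, adjusted p = 0.00271).

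Des, desmin, Tagln, transgelin, Tpm1, a tropomyosin, and Cald1, caldesmon, were called with differences from -0.92 to -0.57. Acta2, Cnn1 and Tpm2 lost the call in 6 refits each, and Acta2 also after quantile normalization and with the replicate block within each genotype. The number of called members ran from 6 to 9. Myh11, smooth muscle myosin, had the widest gap of the list at both levels, -2.39 at the start and -2.50 at the end, and no called difference in response (-0.11 ± 0.13, adjusted p = 0.856).

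The promoter windows of Myl9 and Gbp3 are shown for the elements of their gene groups, in capitals. For Myl9 this is the CArG box, the element bound by serum response factor; for Gbp3 it is GAAA, any 2 bases and GAAA again (searched on both strands), the core of the interferon-stimulated response element, which here lies on the opposite strand and therefore reads as its reverse complement, with 2 overlapping matches. Both are RefSeq windows of GRCm38.p6 on the plus strand, at chr2:156775214-156775513 and chr3:142559794-142560093, 5′ to 3′.
Myl9: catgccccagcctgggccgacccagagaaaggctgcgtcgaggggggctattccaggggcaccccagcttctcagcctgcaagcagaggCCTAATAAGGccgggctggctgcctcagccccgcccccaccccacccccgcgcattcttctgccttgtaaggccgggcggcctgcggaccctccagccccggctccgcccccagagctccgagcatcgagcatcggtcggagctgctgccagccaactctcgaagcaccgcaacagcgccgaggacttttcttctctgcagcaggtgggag
Gbp3: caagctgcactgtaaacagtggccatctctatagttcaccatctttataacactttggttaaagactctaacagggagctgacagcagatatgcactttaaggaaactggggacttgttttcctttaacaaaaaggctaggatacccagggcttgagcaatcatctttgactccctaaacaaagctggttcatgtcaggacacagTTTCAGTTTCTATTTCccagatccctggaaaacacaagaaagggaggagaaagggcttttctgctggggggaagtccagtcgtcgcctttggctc
A CArG box was found in 1.63% of the 15614 genes with a window and in 2 of 11 smooth muscle genes. Among the called smooth muscle genes with a window it was in 1 of 7, Myl9 itself. The interferon element was found in 3.89% of all, in 10 of 14 interferon-stimulated genes (71.4%), and in 10 of 76 end-only genes with the more negative response (13.2%). A second Gbp3 window, from another annotated start, held no match, and no match in a window says only that these letters are not there.

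Another 10 genes lay lower in D1D2KO in both states while the gap narrowed. Pcp4, a small calmodulin regulator, read 8.46, 8.8 and 8.81 in undifferentiated WT and 6.32, 6.09 and 6.14 in D1D2KO cells, and 6.99, 7.18 and 6.76 against 5.94, 5.69 and 6.14 after differentiation. It fell 3.28-fold in WT, while its D1D2KO change of -0.26 was not called (difference 1.45 ± 0.18, limma adjusted p = 0.000762). Chrm2, a muscarinic acetylcholine receptor, had the same shape: 8.28, 8.18 and 8.23 against 6.03, 6.04 and 6.12 at the start and 6.61, 6.69 and 6.56 against 5.57, 5.81 and 5.65 at the end (1.22 ± 0.11, adjusted p = 0.000103). The microRNA gene Mir490, also called, lies over Chrm2 in the annotation, so the signals cannot be told apart.

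Colec10, a collectin, and Cd59a, a complement inhibitor, also fell in WT from a higher start and differed by 1.16 ± 0.12 and 0.89 ± 0.15. Ndufa4l2, a mitochondrial protein induced in hypoxia, rose instead, from 5.66, 6.4 and 5.97 in D1D2KO against 7.52, 7.95 and 7.57 in WT to 9.34, 9.09 and 8.99 against 9.64, 9.5 and 9.77 (1.18 ± 0.22, limma adjusted p = 0.0125). Mab21l2 lost the call in 5 refits.

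In the 27 same-sign genes with the more negative response the gap widened. Ptgs2, the inducible cyclooxygenase of prostaglandin synthesis, read 9.49, 9.69 and 9.37 against 8.57, 8.88 and 8.19 at the start and 9, 9.08 and 8.76 against 6.71, 6.77 and 6.87 at the end. Its D1D2KO deficit grew from 1.96-fold to 4.49-fold (difference -1.20 ± 0.20, limma adjusted p = 0.00559). Plac8 was flat in WT, between 7.7 and 7.84 in all 6 samples, and fell 1.09 on the log2 scale in D1D2KO (-1.03 ± 0.15). Of 19 inflammatory, prostaglandin and acute-phase genes 3 were called, against 1.46% of all genes: Ptgs2 and Reg3g as more negative and Hp as more positive. At the end 11 of the 19 were lower and 0 higher, where 13.7% of all genes differed.

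**Figure D5:**
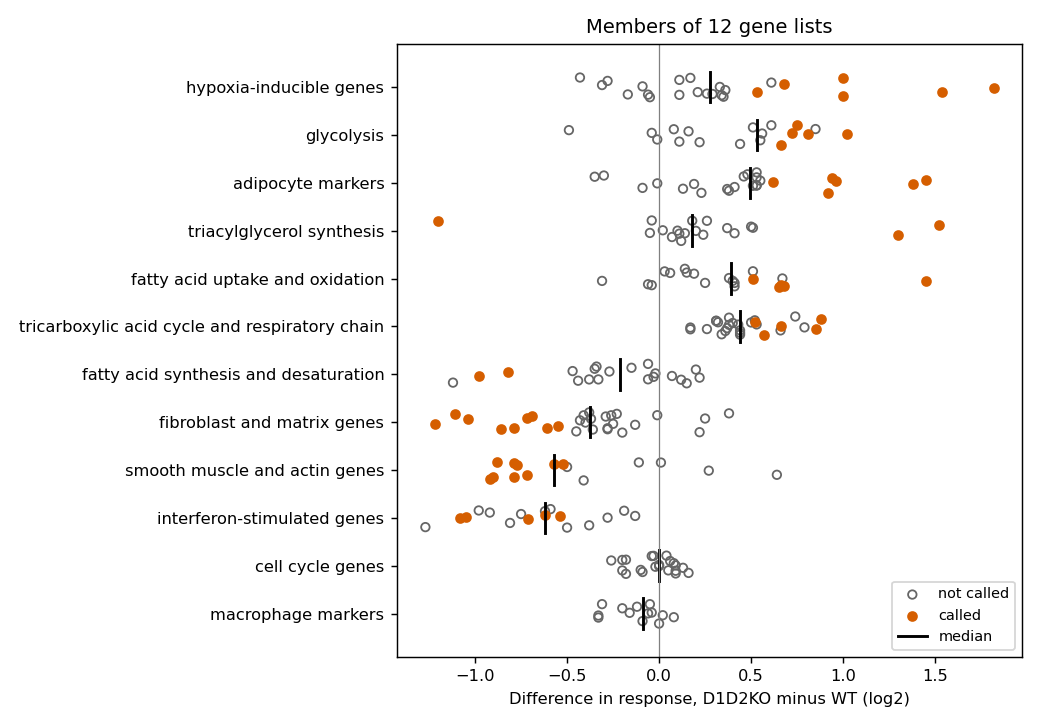
Difference in response, D1D2KO minus WT (horizontal axis, log2), of every measured member of 12 gene lists (rows); filled points were called, open points were not, and bars mark medians. Mitochondrial genes lie wholly to the right of 0 and interferon-stimulated genes wholly to the left, while cell cycle genes sit around it. Macrophage markers run from -0.33 to 0.08, with a median of -0.09 and 3 of 13 positive.

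Several gene groups showed genotype or state differences without a called difference in response. Over all genes limma called 1.46%, and 2239 of 19938 had an unadjusted p under 0.05. A count of 0 called in lists of this size is therefore near the share of all genes. Of 21 cell cycle genes 0 were called by limma and 0 had an unadjusted p under 0.05, with a median of 0.00 and a range from -0.26 to 0.16. The genotype gap in these genes was there at both ends. At the start 8 of 21 were lower in D1D2KO (8.02% of all genes differed), and 11 at the end (13.7%). Of 18 cholesterol genes 0 were called by limma (3 more negative at an unadjusted p under 0.05, and 1 called after quantile normalization). At the end 8 of the 18 were lower, where 13.7% of all genes differed. Of 17 unfolded protein response genes 0 were called, with 2 more positive and 1 more negative at an unadjusted p under 0.05. Cardiac and skeletal muscle markers gave Tnnt2 and Nppa among 16, where 1.46% of all genes were called.

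Markers of other cell types were counted the same way. Among 10 endothelial, 8 epithelial, 7 skeletal (bone and cartilage) and 5 blood and liver markers limma called 0, with 3, 1, 0 and 1 at an unadjusted p under 0.05. Over all genes 1.46% were called and 2239 of 19938 had an unadjusted p under 0.05. A count of 0 called among so few genes is near that share. The summed linear signals of these markers were small, at most 511, 375, 395 and 147 in any sample, beside 41300 to 57300 for adipocyte markers in differentiated cells. Array signals have no true 0, so absence of those cells is not shown by these values.

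The genes just inside the threshold were Taco1 (0.54), Chst15 (0.49) and Acat1 (0.48), with limma adjusted p values of 0.0486, 0.0485 and 0.0494, and all 3 missed it with the replicate block in D1D2KO (0.0698, 0.0734 and 0.0539). Those just outside were Mcee (0.47), Tmem182 (1.01) and Tmem47 (-0.50), at 0.0503, 0.0514 and 0.0518. Without the adjustment, 2239 genes had p under 0.05.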

How the data were processed

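Total RNA of 12 samples in 4 groups of 3 was measured on single-colour whole-transcript mouse arrays, and the authors deposited 1 table of processed values on the log2 scale, in which the base was read from the range of 1.15 to 14.17. The summarisation and normalization behind it are not given in the sources used here. Of 35556 probe sets 21789 named 1 gene in the platform annotation, 1621 several and 12146 none; 21698 of the single-gene identifiers were found in the RefSeq table. For the 999 genes with several such probe sets the one with the highest mean was kept, giving 19938 genes, with no filter on low values.

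limma 3.58.1 in R 4.3.3 was fitted with 4 group means (8 residual degrees of freedom, 8.26 prior), and each contrast was adjusted by Benjamini-Hochberg over all genes, two-sided. The script was checked on simulated data. Alternatives were array centring, quantile normalization, other probe-set rules, a filter, array weights, trended and robust eBayes, other class thresholds, replicate blocks and each sample left out. Deviations of same-numbered samples from their group means correlated at 0.101, 0.11 and 0.176 in D1D2KO and at -0.0125, 0.129 and 0.0376 in WT, so the numbers were taken to pair samples in D1D2KO only; that block was chosen after seeing the data.

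Named genes were Dgat1 and Dgat2, among the 6 largest differences of each class and direction, among called members of each list with up to 2 uncalled ones of high signal, and the 3 genes on either side of the threshold. Acly, Fasn, Pparg, Plin1, Mir490 and the genes moving in opposite directions were added after their values were seen. Genes and lists were chosen with earlier results of these data known, and lists are described by counts and medians without a test; an older symbol was matched only where it was no current symbol and named 1 gene. Figures were drawn with matplotlib 3.10.9. The number of arrays limits the precision.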

Additional observations from a re-analysis of the deposited data

Results flagged for a closer look

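The difference between the 2 genotypes' responses was itself the test, and 291 genes passed it. Among them 8 genes with established symbols moved in opposite directions in the genotypes, both responses being called by limma. Ccdc3 fell by 0.79 on the log2 scale in WT and rose by 0.43 in D1D2KO (difference 1.22, in every D1D2KO sample a lower start and a slightly higher end). Efemp1 rose by 0.35 in WT and fell by 0.76 in D1D2KO (difference -1.11). Mmp11, a matrix metalloprotease, rose by 0.25 and fell by 0.46 (-0.71), and Col28a1, a collagen, rose by 0.31 and fell by 0.35 (-0.66). These 4 were called whichever sample was left out.

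The other 4 lost the call in 1 or more refits. Hspb1, a small heat shock protein, rose by 0.36 in WT and fell by 0.37 in D1D2KO (-0.73), and missed the threshold without D1D2KO undifferentiated replicate 3 (adjusted p = 0.0503, limma). Mid1ip1 (-0.71) and Hoxc8 (-0.63) were called in 7 and 4 of the 12 refits with 1 sample left out. Prss40 fell by 0.24 in WT and rose by 0.27 in D1D2KO (0.51) and was called in 3, with signals between 4.22 and 4.79, close to the lower quartile of the arrays. Groups of 3 samples are too small for a test of single outlying samples.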

How the results depend on the processing

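None of the named called genes changed direction under an alternative that gave them a value; 89 of 100 had one among genes above the median signal, and refitting every probe set gave counts only. The 291 calls became 537 among genes above the median signal, 450 with trended and robust eBayes, 604 with array weights and 39 at a size of at least 1; the more positive 149 became 261 above the median signal, 327 with weights and 26 at size 1, and the more negative 142 became 276, 277 and 13, and 229 with trended and robust eBayes. Start-level calls (1600) became 838 after quantile normalization, 881 above the median signal and 4224 with weights. Start-only genes (57) became 88 above the median signal and 159 with weights; end-only genes (167) 341, 298 and, trended and robust, 277; same-sign genes (37) 57, 73 and, by a size of 0.5 in place of the adjusted p, 18; opposite-sign genes (24) 63 with weights, 1 by size 0.5 and 49 at adjusted p under 0.1. The 6 genes differing at neither level became 1 after centring, 13 after quantile normalization, 24 above the median signal, 10 trended and robust, 11 with weights, 0 with a replicate block over all samples, 85 by size 0.5 and 0 at adjusted p under 0.1. The share of opposite-sign genes therefore depends on the class threshold.

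Leaving out 1 sample gave 159 to 449 calls (77 to 248 more positive, 76 to 236 more negative), 339 to 1967 at the start level, lowest without WT undifferentiated replicate 2, and 1344 to 2822 at the end level, lowest without WT differentiated replicate 2. It gave 5676 to 7152 WT and 6480 to 7629 D1D2KO responses. By class it gave 29 to 80 start-only, 95 to 289 end-only, 17 to 41 same-sign, 6 to 29 opposite-sign and 0 to 13 other genes. Of the genes still called, 83.7 to 94.9% kept their class.

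With the replicate number as a block 252 genes were called (D1D2KO only), 265 (within each genotype) and 254 (over all samples). Start and end levels were not counted under the block within each genotype or the block in D1D2KO only. The block in D1D2KO ended the calls of 10 of 100 named genes; those described above have that p beside them. Signals near the lower quartile limit Mx2, Tshr, Acvr1c, Adipoq, Brinp3 and Prss40.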

Other observations

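Undifferentiated replicate 2 had the highest mean level of the hypoxia-inducible list in both genotypes, 8.08 in WT beside 8.02 and 7.99, and 7.7 in D1D2KO beside 7.62 and 7.53. The glycolysis list had the same order, 9.43 beside 9.33 and 9.31, and 8.99 beside 8.91 and 8.79. The gap between genotypes was wider than these differences between replicates. In differentiated cells the fatty acid synthesis list was lowest in WT replicate 2 (9.85, beside 10.27 and 10.31) and in D1D2KO replicate 3 (9.56, beside 9.93 and 9.81), the 2 samples with the lowest array weights.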
